A study of Mus musculus with 4 samples.

Results

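The transcripts described here are those of 44 genes of mitosis and the G2/M transition. These genes were chosen by name as cyclins, mitotic kinases, checkpoint, kinetochore, spindle, chromosome or cytokinesis genes. The choice was made with earlier results of these data known, so shares set against all genes are descriptions only. Of the 44, 42 had a probe set named for that gene alone, and 30 of these reached a signal of 500 on at least 1 of 4 Affymetrix mouse arrays, among 4645 of 12393 genes that did so. No probe set was used for Espl1 and Cdca8. The nearest genes inside the limit were Ncapd2, Cenpf and Nusap1, with highest signals of 501, 504 and 519, and the nearest outside were Kif20a, Kif4 and Aurkb, with 493, 462 and 454. Each gene was represented by its brightest probe set, and its other probe sets served as a check.

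The RNA came from primary mouse embryonic fibroblasts, cultures of connective tissue cells grown here from e14.5 embryos. They were either wild type or tri-CH1, a genotype with the CH1 domain deleted from both alleles of p300 and from 1 allele of CBP. CH1 is a protein-binding domain of these paired transcriptional coactivators. Subconfluent cells of each genotype spent 6 h at 21% oxygen (normoxia) or at 0.1% oxygen (hypoxia), in serum-containing medium that had been brought to the same oxygen level; incubation was at 37 °C in 5% CO2. There was 1 array for each of the 4 groups, so the values have no replicate error and no test was run. The labels do not say how many embryos a culture came from, so a difference between genotypes cannot be told apart from one between cultures.

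Cells that leave G2 activate the kinase Cdk1 through A- and B-type cyclins, condense their chromosomes, attach them to the spindle, and wait at the spindle checkpoint until every kinetochore is attached. The anaphase-promoting complex, with its activator Cdc20 and the ubiquitin-conjugating enzyme Ube2c, then marks securin and the cyclins for destruction, and the cell divides. Most of these genes are transcribed late in the cycle, and in growing fibroblast cultures their RNA is a usual measure of proliferation. In a bulk sample a smaller share of cells in G2 and mitosis cannot be told apart from less of each RNA per cell.

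Arrays carried 6066 to 6328 probe sets at 500 or more, and their number limits the precision. Fibroblast identity was visible in the markers: 8 of 10 fibroblast genes were at 500 or more on all 4 arrays, with summed signals between 129770 and 134707. The sum hides differences between the genotypes in single markers. In hypoxia 3 of 10 differed by 2-fold or more, against 7.06% of all genes: Thy1 was lower in tri-CH1, Col1a1 and Dcn higher. In normoxia 1 of 9 bright enough did, against 6.65%: Thy1, at 13148 in wild type and 3837 in tri-CH1. No endothelial, epithelial, muscle, neural or erythroid marker reached 500 on any array. Of 8 macrophage markers, Csf1r and Lyz2 did, and Ptprc was under 200 on all 4 arrays; the summed macrophage signal was 2347 in wild type in normoxia, 2445 in wild type in hypoxia, 2527 in tri-CH1 in normoxia and 2254 in tri-CH1 in hypoxia. Of 9 known hypoxia-induced genes counted, 9 of 9 bright enough in tri-CH1 and 8 of 8 in wild type rose by 2-fold or more in hypoxia; Bnip3 went from 403 to 10530 in wild type. The targeted gene Crebbp, which encodes CBP, stayed under 200 on all arrays and checks nothing. Wild type in normoxia was hybridised to another array lot than the other 3 arrays.

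The promoters of these genes carry a shared sequence signature that the choice by name did not use. A pair of elements are textbook features of late cell cycle promoters: the cell cycle genes homology region (CHR, searched as TTTGAA), which is bound by the DREAM and MuvB complexes, and the CCAAT box (searched as CCAAT), which is bound by NF-Y. RefSeq windows of 300 bases on GRCm38.p6, from 250 bases before to 50 after the start of a gene, were available for 38 of the 44 genes, as 41 windows because Ect2, Prc1 and Bub3 have a pair of overlapping ones. On either strand, TTTGAA occurred in 31 of the 41 windows (75.6%), against 17.9% of all 32851 promoter windows. CCAAT occurred in 34 windows (82.9%), against 37.4% of all windows, and in 24 (58.5%) more than 1 CCAAT was found, against 11.7%. Both motifs were found together in 70.7% of the windows and in 6.95% of all windows. The words can overlap by 1 base, and each match was counted.

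The windows of 9 genes below show this arrangement, from 120 bases before to 50 after the start and written 5′ to 3′ along the gene. They are a hand-picked selection from the genes described below, so they do not show how common the arrangement is. Windows with neither motif, such as those of Birc5 and Mad2l1, are not among them. Capitals mark the matches on either strand, so ATTGG is CCAAT on the other strand and TTCAAA is TTTGAA on the other strand.
Cdk1, the mitotic kinase, chr10:69352863-69353032, minus strand: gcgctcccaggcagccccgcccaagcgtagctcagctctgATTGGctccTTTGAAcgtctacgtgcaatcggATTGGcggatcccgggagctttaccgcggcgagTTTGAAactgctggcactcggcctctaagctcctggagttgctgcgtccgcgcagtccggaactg
Ccnb2, a B-type cyclin, chr9:70421505-70421674, minus strand: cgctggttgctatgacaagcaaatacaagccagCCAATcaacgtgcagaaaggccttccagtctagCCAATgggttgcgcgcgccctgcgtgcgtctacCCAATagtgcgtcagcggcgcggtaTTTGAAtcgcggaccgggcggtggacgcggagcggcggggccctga
Plk1, the polo-like kinase, chr7:122159315-122159484, plus strand: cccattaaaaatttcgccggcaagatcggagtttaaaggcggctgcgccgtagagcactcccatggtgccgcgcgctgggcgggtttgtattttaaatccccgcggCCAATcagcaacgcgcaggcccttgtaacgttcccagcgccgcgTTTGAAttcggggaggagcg
Cdc20, the anaphase activator, chr4:118437294-118437463, minus strand: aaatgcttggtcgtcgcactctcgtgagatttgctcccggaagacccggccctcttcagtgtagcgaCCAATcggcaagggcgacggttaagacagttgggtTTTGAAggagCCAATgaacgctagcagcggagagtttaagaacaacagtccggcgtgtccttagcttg
Ube2c, the anaphase ubiquitin-conjugating enzyme, chr2:164769809-164769978, plus strand: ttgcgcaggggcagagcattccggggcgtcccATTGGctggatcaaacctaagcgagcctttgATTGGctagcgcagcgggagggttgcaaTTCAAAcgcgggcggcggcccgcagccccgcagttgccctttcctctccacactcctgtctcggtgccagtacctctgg
Bub1b, the checkpoint protein, chr2:118598091-118598260, plus strand: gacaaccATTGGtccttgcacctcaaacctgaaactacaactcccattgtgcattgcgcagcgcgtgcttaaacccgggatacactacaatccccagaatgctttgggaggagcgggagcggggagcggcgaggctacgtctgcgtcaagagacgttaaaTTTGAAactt
Cdca3, the ubiquitin ligase component, chr6:124830056-124830225, plus strand: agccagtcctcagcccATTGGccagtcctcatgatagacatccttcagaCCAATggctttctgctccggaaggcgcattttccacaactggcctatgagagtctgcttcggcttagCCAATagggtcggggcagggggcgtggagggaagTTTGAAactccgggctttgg
Mki67, the Ki-67 protein, chr7:135716330-135716499, minus strand: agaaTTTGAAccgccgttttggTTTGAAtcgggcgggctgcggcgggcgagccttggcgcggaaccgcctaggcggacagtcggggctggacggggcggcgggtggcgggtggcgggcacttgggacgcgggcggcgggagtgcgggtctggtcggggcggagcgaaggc
Cenpq, a kinetochore subunit, chr17:40934525-40934694, minus strand: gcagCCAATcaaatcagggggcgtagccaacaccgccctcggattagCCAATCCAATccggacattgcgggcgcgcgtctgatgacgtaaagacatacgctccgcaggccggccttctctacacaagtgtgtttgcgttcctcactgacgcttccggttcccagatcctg

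In Cdk1 the TTTGAA nearest to the start was centred at -12 bases, downstream of inverted CCAAT boxes at -77.5 and -45.5, and another TTTGAA lay between these, at -68. The TTTGAA of Ube2c, at -26, also lay downstream of inverted CCAAT boxes, at -85.5 and -54.5. In Ccnb2 3 CCAAT boxes lay at regular distances upstream of a TTTGAA at 7 bases after the start. Cdc20 differed in having a CCAAT box on each side of its TTTGAA, which was at -15. In Plk1, Cdca3 and Bub1b the TTTGAA lay downstream of the start, by 33, 33 and 43 bases. Both TTTGAA matches of Mki67 were farther upstream, at -113 and -95, and its CCAAT boxes lie upstream of the stretch shown. The Cenpq window held 3 CCAAT boxes, a pair of them back to back, and no TTTGAA.

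**Figure D1:**
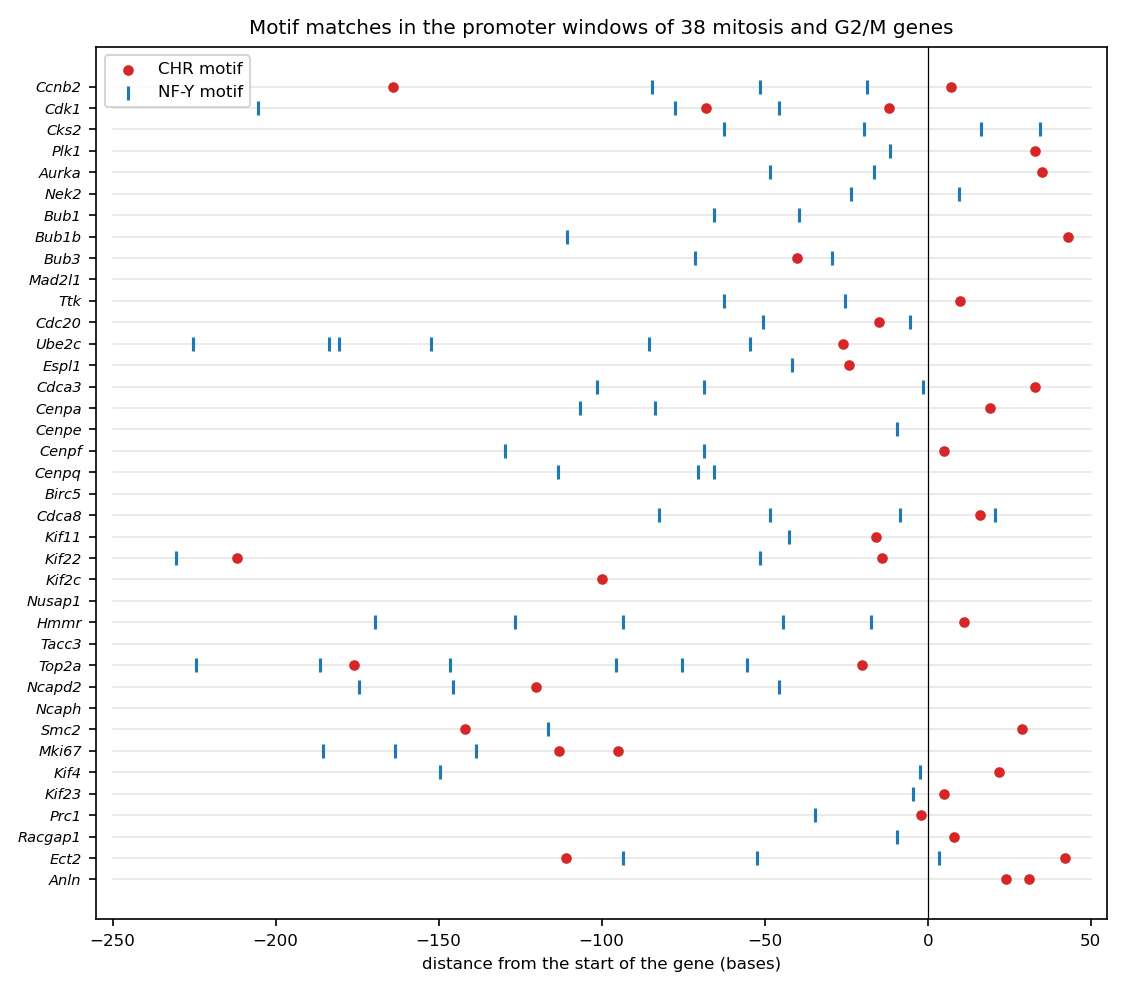
Matches to the CHR motif (red dots) and the NF-Y motif (blue ticks) in 1 promoter window for each of 38 genes, by distance from the start of the gene in bases, with genes in order of role. The red dots crowd around the start and the blue ticks mostly lie upstream of it; Mad2l1, Birc5, Nusap1, Tacc3 and Ncaph have neither.

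Of 40 TTTGAA matches in the 41 windows, with a match shared by overlapping windows counted in each, 28 (70.0%) were centred within 50 bases of the start, against 26.3% of all TTTGAA matches in promoter windows. Of 81 CCAAT matches, 38 (46.9%) lay between 100 and 20 bases before the start, against 37.7%. The share of windows with both motifs was 21.5% in those of other mitosis and G2/M genes, 6% in those of DNA replication genes and 0 of 17 in those of G1 cyclins and CDK inhibitors. The last list also holds the kinases Cdk2, Cdk4 and Cdk6 and the G-type cyclins Ccng1 and Ccng2. An E2F site, searched as TTTCCCGC or TTTGGCGC, was in 26% of the replication windows, 1.56% of all windows and 1 of the 41 windows here, that of Ncapd2. A match is a description of these letters only.

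Signals below are the deposited values, with the order wild type in normoxia, wild type in hypoxia, tri-CH1 in normoxia, tri-CH1 in hypoxia unless stated. Differences are on the log2 scale after signals under 200 were raised to 200, which touched none of the 30 genes. A gene was called where it differed by 2-fold or more and the brighter of the arrays compared had a signal of at least 500. The only internal error is the spread between probe sets of a gene: over 1505 genes it was an SD of 0.25 for the hypoxia change in wild type, 0.29 for that in tri-CH1, 0.33 for the genotype difference in normoxia and 0.31 for that in hypoxia.

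In wild-type fibroblasts most of these transcripts were lower after 6 h at 0.1% oxygen, by a modest amount. Of the 30, 24 (80.0%) were lower, against 56.7% of all genes, and the median was -0.27 against -0.05 for all genes. Of the 24 bright enough in this comparison, 0 were called, where 4.24% of all genes were (3.05% higher and 1.19% lower). At 1.5-fold, 2 of these 24 were past the limit, Cdc20 and Ube2c, both lower, and 13.7% of all genes were. Over all 42 genes with a probe set, dim ones included, 29 were lower and the median was -0.21.

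In tri-CH1 fibroblasts the same comparison gave a smaller median, -0.13 against -0.03 for all genes, and 20 of 30 (66.7%) were lower against 53.5%; the other 10 were higher, as 46.2% of all genes were. Cenpq was the 1 gene called lower, where 0.987% of all genes were, and 0 were called higher, where 3.19% were, or 4.18% in either direction. Cenpq was counted only through the tri-CH1 normoxia array, so the array that let it in also sets its call; with a mean signal of 500 or more, 0 genes were called and the median of 25 genes was -0.21. At 1.5-fold 5 of 30 were past the limit, 4 lower and 1 higher, against 14.9% of all genes. Of the 30, 19 were lower in hypoxia in both genotypes, which is 63.3% against 38.2% of all genes; the hypoxia comparisons of the genotypes share no array. The hypoxia change in tri-CH1 minus that in wild type had a median of 0.06 over the 30 genes and 0.03 over all genes, and 17 of 30 differences were above 0.

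The clearest difference over the list was between genotypes. In normoxia 27 of 30 genes were higher in tri-CH1, against 53.3% of all genes, and 3 lower, against 46.4%. The median was 0.30 against 0.03. With arrays scaled to the same median, the list's median was 0.08 and that of all genes -0.20. Under that scaling 12 of 30 genes (40%) were lower, against 68.8% of all genes. That scaling lowers every genotype difference in normoxia alike, so the direction of the smaller ones below turns with it. In hypoxia 26 of 30 (86.7%) were higher, against 55.5%, with a median of 0.42 against 0.05, and with scaling to the same median it was 0.34. The comparison in hypoxia does not use the array of the other lot, while in normoxia lot and genotype cannot be told apart, nor can lot and oxygen in wild type. The genes higher in tri-CH1 at both oxygen levels were 25 of 30 (83.3%), against 39.7% of all genes.

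In normoxia 0 of 28 bright enough were called, where 6.65% of all genes were (3.16% higher and 3.48% lower), and 5 were past 1.5-fold, against 19.7%. In hypoxia Bub1b and Cdca3 were called higher, 2 of 28 bright enough, where 3.76% of all genes were; 0 were called lower, where 3.31% were, or 7.06% in either direction. At 1.5-fold 7 of 28 were past the limit, 6 higher and 1 lower, against 19.8%. The list thus differed from all genes in the share on each side of 0 more than in the share past a fold limit. The choice of members bears on these counts, because 6 of the 30 (Bub1b, Cenpa, Cenpf, Cenpq, Nusap1 and Ncapd2) reached 500 only on tri-CH1 arrays. Among the 25 with a mean signal of 500 or more, 22 were higher in tri-CH1 in normoxia and 22 in hypoxia, with medians of 0.25 and 0.38, and Bub1b was no longer counted. Background after scaling was 139, 246, 343 and 393, higher on the tri-CH1 arrays, and all genes with a mean signal of 250 to 1000 had medians of 0.09 in normoxia and in hypoxia. The part of background in the difference was not tested.

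**Figure D2:**
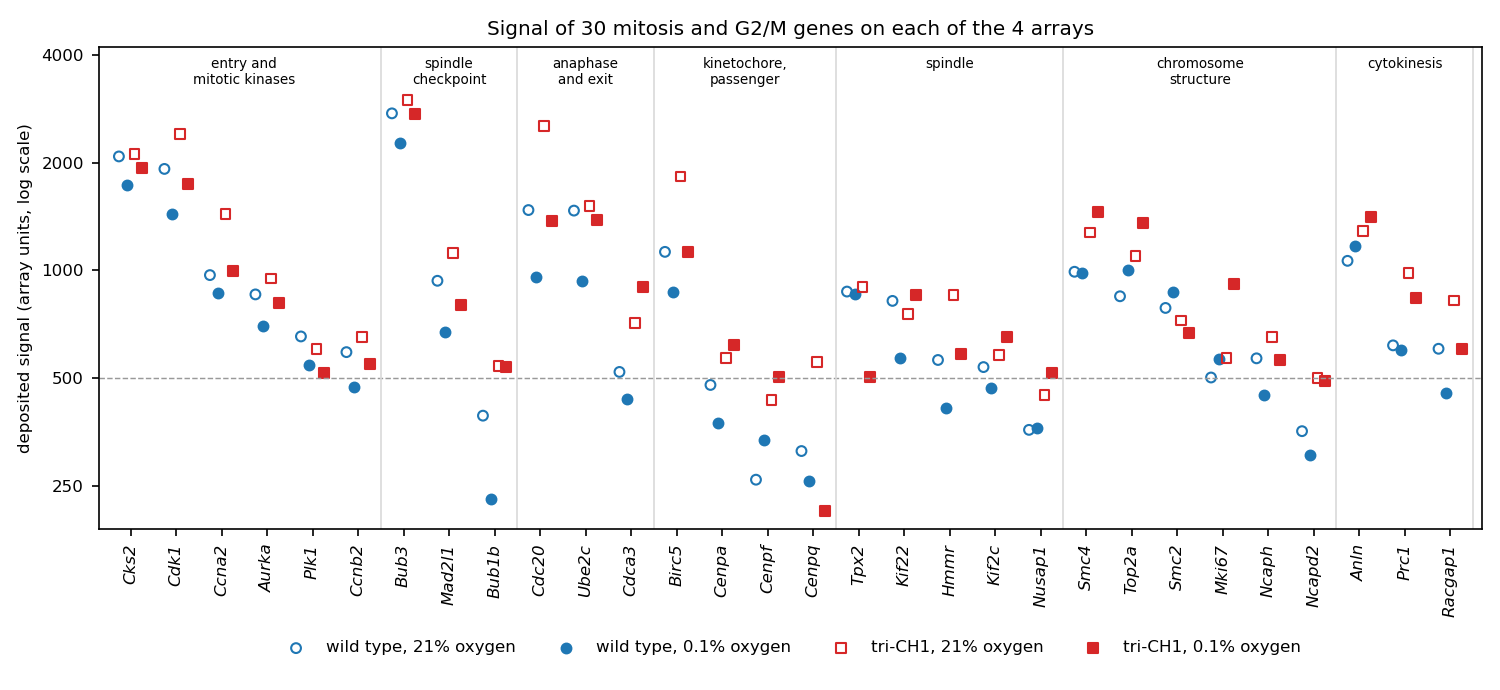
Deposited signal (log scale) of the 30 genes on the 4 arrays, grouped by role and ordered by mean signal within a role; blue circles are wild type, red squares tri-CH1, open 21% and filled 0.1% oxygen, with 1 array per symbol. Red symbols lie above blue ones of the same oxygen level for 27 genes in normoxia and 26 in hypoxia. With arrays scaled to the same median, 12 genes (40%) are lower in tri-CH1 in normoxia, against 68.8% of all genes. The dashed line is a signal of 500.

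Among the genes of mitotic entry, all 6 counted were lower in hypoxia in both genotypes. Cdk1, the kinase that drives entry into mitosis, had signals of 1919.7, 1435, 2401 and 1746. It was highest in tri-CH1 in normoxia and lowest in wild type in hypoxia, with hypoxia changes of -0.42 in wild-type cells but -0.46 in tri-CH1 cells. Cks2, a small subunit that binds Cdk1, stood at 2079.9, 1729.9, 2115 and 1927, and its other probe set gave -0.32 and -0.15 with hypoxia, beside -0.27 and -0.13.

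Ccna2, the A-type cyclin of S phase and G2, had hypoxia changes of -0.16 and -0.53, and its other bright probe set -0.31 and -0.10. The probe sets thus share the direction and not the order of the genotypes. Ccnb2, a B-type cyclin, gave -0.32 and -0.25, Plk1, the polo-like kinase of centrosome maturation and mitotic exit, -0.26 and -0.22, and Aurka, the spindle pole kinase, -0.29 and -0.22. By genotype this group had medians of 0.14 in normoxia and 0.21 in hypoxia, and Plk1 was lower in tri-CH1 at both oxygen levels, at -0.11 and -0.07. Cdc25c, the phosphatase that activates Cdk1, was under 200 on every array, and the centrosomal kinase Nek2 was between 173 and 311.

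The checkpoint genes counted, 3 of 5, were also lower in hypoxia in both genotypes, though Bub1b in tri-CH1 by only -0.01. Bub3, a subunit of the checkpoint complex, had signals of 2743, 2261, 2994 and 2733. Mad2l1, which binds and holds Cdc20, had 936, 675, 1117 and 800. Both were lower in hypoxia in each genotype, Mad2l1 by -0.47 and -0.48 and Bub3 by -0.28 and -0.13, though a dimmer probe set of Bub3 gave -0.03 and 0.11.

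Bub1b, the BubR1 checkpoint protein, had signals of 394, 230.0, 540.4 and 537. Its lowest value by far was wild type in hypoxia, so its genotype difference was 0.46 in normoxia and 1.22, or 2.33-fold, in hypoxia. The hypoxia change was -0.78 in wild-type cells but -0.01 in tri-CH1 cells. With a floor of 400 the difference in hypoxia was 0.42. The kinases Bub1, at 196 to 353, and Ttk, at 214 to 262, did not reach 500. Bub1 was higher in hypoxia, by at least 0.71 in wild type and by 0.36 in tri-CH1, while Ttk was lower, at -0.10 and -0.29.

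The genes of anaphase and mitotic exit had the lowest hypoxia median of any role in wild type, -0.62 over 3 genes. Cdc20 had signals of 1474, 958, 2526 and 1372, lower in hypoxia in each genotype and higher in tri-CH1 at each oxygen level. Its hypoxia changes were -0.62 and -0.88, and its genotype differences 0.78 in normoxia and 0.52 in hypoxia. Another probe set gave -1.06 and -0.65 for hypoxia, past 2-fold in wild type, and 0.37 and 0.79 for genotype.

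Ube2c had signals of 1469, 937, 1510.2 and 1384. Wild type in hypoxia stood apart, below 3 arrays that were close together. The hypoxia change was -0.65 in wild-type cells but -0.13 in tri-CH1 cells. Cdca3, a ubiquitin ligase component that targets the Cdk1 inhibitor Wee1, had 521, 437, 713 and 899. It was lower in hypoxia in wild type, at -0.25, and higher in tri-CH1, at 0.34, and its genotype difference in hypoxia was 1.04, or 2.06-fold. That difference was 0.99 with quantile normalization, 0.99 with cyclic loess and 0.96 with scaling to the same median. It kept its sign in 8 of 9 settings of the processing and was 0 at the lowest. The other probe sets of Cdca3 were under 200 on every array.

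Among kinetochore and chromosomal passenger genes, all 4 counted were higher in tri-CH1 in normoxia, with a median of 0.72, but 3 of these 4 (Cenpa, Cenpf and Cenpq) were counted only through tri-CH1 arrays. With a mean signal of 500 or more, 2 remained, with a median of 0.47. Birc5 (survivin), a subunit of the passenger complex that corrects attachments, had signals of 1127, 869, 1829 and 1128. Tri-CH1 in normoxia was the highest, and the value of tri-CH1 in hypoxia matched wild type in normoxia. Its hypoxia changes were -0.38 and -0.70. Cenpa, the histone H3 variant that marks centromeres, had 479, 377, 570.2 and 619, with genotype differences of 0.25 and 0.72.

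Cenpq, a subunit of the constitutive centromere network, had signals of 314, 258, 554 and 214. Only tri-CH1 in normoxia was above 500, and the other 3 arrays lay together. Its hypoxia change in tri-CH1 was -1.37, a fall of 2.59-fold, beside -0.28 in wild type, and its genotype difference was 0.82 in normoxia and -0.27 in hypoxia. With a floor of 400 the change in tri-CH1 was -0.47, and no other probe set was present as a check. Cenpf, a large protein of the outer kinetochore, was higher in tri-CH1 by 0.73 and 0.59 and had hypoxia changes of 0.36 and 0.21. Aurkb, the kinase of the passenger complex, was between 336 and 454, and the kinetochore motor Cenpe was under 200 on all arrays.

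The spindle genes were mixed. Tpx2, which activates Aurka on microtubules, had signals of 873, 859, 898 and 505. Tri-CH1 in hypoxia stood alone, so its hypoxia change was -0.02 in wild-type cells but -0.83 in tri-CH1 cells, and its genotype difference in hypoxia was -0.77, against the direction of most of the list. A dimmer probe set of Tpx2 gave -0.19 and -0.18 for hypoxia and -0.21 for genotype in hypoxia.

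Kif22, a chromosome-arm motor, had signals of 823, 570.5, 758 and 857, with wild type in hypoxia the lowest. Its hypoxia change was -0.53 in wild-type cells but 0.18 in tri-CH1 cells. A dimmer probe set of Kif22, at 149.7 to 214, gave -0.10 and -0.05 and so did not show opposite directions, and another was under 200 on every array. The motor Kif2c, which depolymerises microtubules, gave -0.19 and 0.16. Its dimmer probe sets gave -0.49 and 0.07, -0.89 and -0.48, and 0 and -0.35, so the sign in tri-CH1 depended on the probe set. Nusap1, which bundles microtubules, gave 0.02 and 0.21. Hmmr, a spindle-assembly protein, gave -0.45 and -0.55 and genotype differences of 0.60 and 0.50. Its dimmer probe sets disagreed: 2 were lower in hypoxia in both genotypes, and 1, at 316 to 436, was higher, by 0.46 and 0.44. Kif11, the motor that separates spindle poles, stayed between 252 and 433 and was higher in hypoxia, by 0.31 and 0.78. Its dimmer probe sets gave 0.17 and 0.03, and 0.09 and -0.09. Tacc3, a microtubule-binding partner of Aurka, was between 191 and 441; its genotype difference of at least 1.14 in normoxia was not counted because no array reached 500.

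Genes of chromosome structure did not share the lower values in hypoxia: 3 of 6 were lower in each genotype. Top2a, the topoisomerase that untangles sister chromatids, had signals of 847, 1006, 1097 and 1355. Smc4, a condensin ATPase, had 992, 985, 1277 and 1457. For both, tri-CH1 in hypoxia was the highest array; the hypoxia changes were 0.25 and 0.31 for Top2a and -0.01 and 0.19 for Smc4.

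A dimmer probe set of Smc4 gave -0.24 and -0.46 with hypoxia. Mki67, which coats mitotic chromosomes and is the common proliferation marker, had a hypoxia change of 0.17 in wild-type cells but 0.68 in tri-CH1 cells. The condensin subunits Ncapd2 and Ncaph gave -0.22 and -0.34 in wild-type cells, and -0.03 and -0.21 in tri-CH1 cells. A dimmer probe set of Ncaph, at 290 to 371, gave 0.36 in wild type and -0.08 in tri-CH1 for hypoxia, and -0.13 for genotype in hypoxia. Smc2, the partner ATPase of Smc4, was lower in tri-CH1 at both oxygen levels, at -0.12 and -0.38, unlike Smc4, at 0.36 and 0.56. The chromokinesin Kif4 was between 383 and 462.

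Of the cytokinesis genes, 3 of 6 were counted, and all 3 were higher in tri-CH1 at both oxygen levels. Anln, an actin-binding scaffold of the cleavage furrow, had signals of 1064, 1172, 1289 and 1409, with both tri-CH1 arrays above both wild-type arrays. Prc1, which bundles the midzone microtubules, had 618, 602, 982 and 837. Its genotype differences were 0.67 and 0.48, while its other bright probe set gave 0.01 and -0.37. Racgap1, which with Kif23 forms centralspindlin, gave -0.41 and -0.45 for hypoxia and 0.45 and 0.40 for genotype. The dim members were Kif20a at 322 to 493, Kif23 at 170 to 339 and Ect2 at 220 to 350; of these, Kif23 was higher in hypoxia in both genotypes, by at least 0.53 and at least 0.76, because its normoxia signals were under 200.

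**Figure D3:**
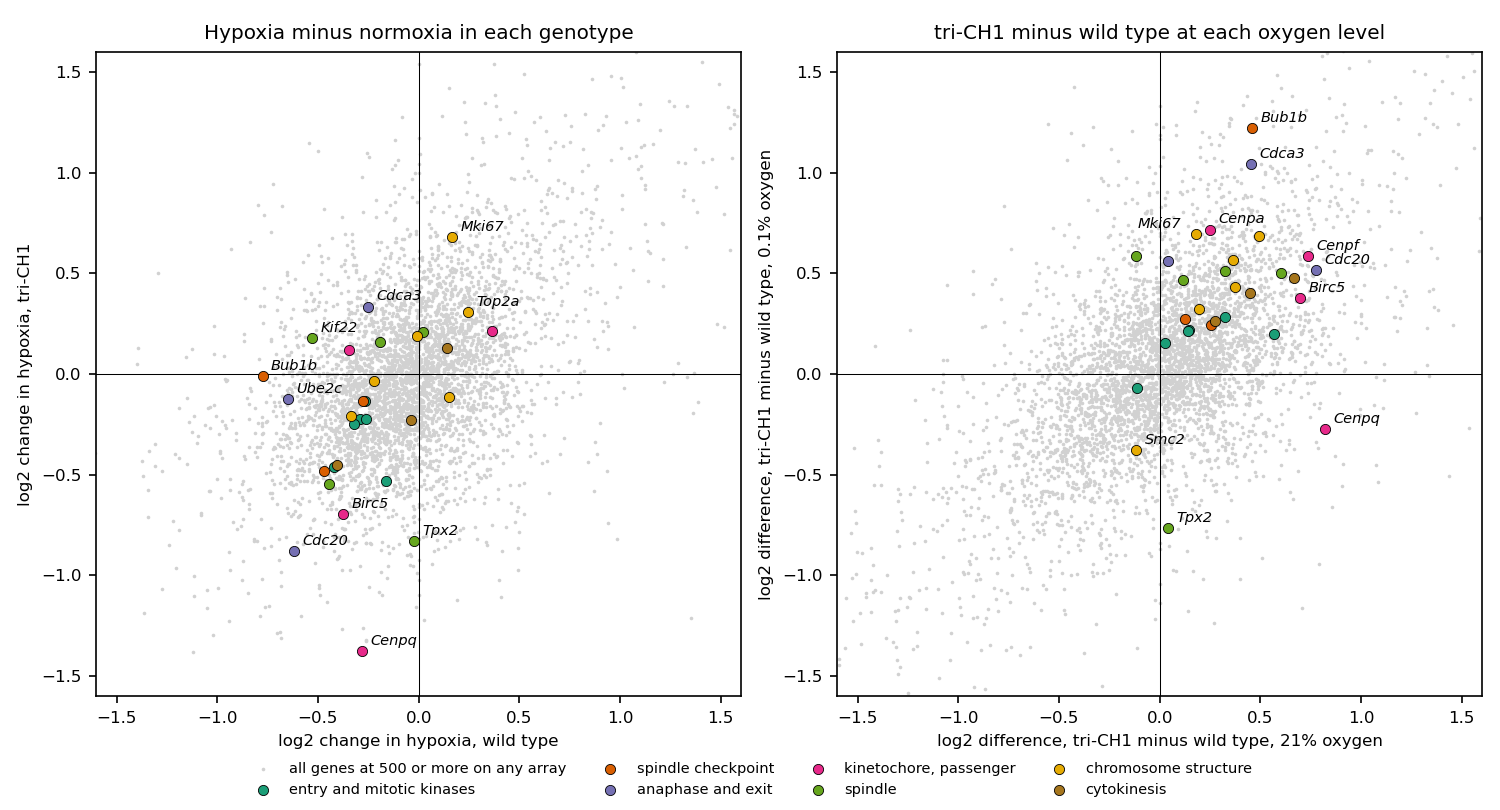
Left, the log2 hypoxia change in wild type (x) against that in tri-CH1 (y); right, the log2 difference of tri-CH1 from wild type at 21% (x) and 0.1% oxygen (y). Grey dots are the genes at 500 or more on any array that fall within the axes, and coloured dots are the 30 genes by role; on the left 19 of them lie below 0 on both axes, and on the right 25 lie above 0 on both, fewer with arrays scaled to the same median.

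Grouped after their values were seen, the genes of entry, checkpoint and exit were lower in hypoxia in 12 of 12 cases in wild type, against 56.7% of all genes, and in 11 of 12 in tri-CH1, against 53.5%, with Cdca3 the exception and Bub1b at -0.01, above 0 with quantile normalization, cyclic loess or scaling to the same median, while chromosome structure genes were divided. Kinetochore and passenger genes also had hypoxia medians below 0, at -0.31 and -0.29, as did cytokinesis genes, at -0.04 and -0.23. Among uncounted genes of entry, checkpoint and exit, Bub1 and Nek2 were higher in hypoxia in wild type, Ttk was lower, and Cdc25c was under 200. The largest differences in hypoxia response between genotypes went both ways. Bub1b had a difference of 0.77, Kif22 of 0.70 by its brightest probe set and Cdca3 of 0.59, all with a lower wild-type value in hypoxia. Cenpq had -1.09, which rests on its high tri-CH1 value in normoxia, 554, the only signal of this gene above 500. Tpx2 had -0.81 by its brightest probe set, with a low tri-CH1 value in hypoxia. The dimmer Tpx2 probe set was lower in hypoxia by a similar amount in either genotype (-0.19 and -0.18). Other probe sets that reached 500 existed for 6 genes; they had the sign of the brightest one for 5 of 6 in the wild-type hypoxia comparison, 4 of 6 in that of tri-CH1 and 5 of 6 in each genotype comparison.

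Counted genes with and without both motifs had hypoxia medians close to each other. The 19 counted genes with both motifs had medians of -0.29 and -0.13 for hypoxia and 0.32 and 0.50 for genotype. The 8 with a window that lacked 1 or both motifs, Anln, Birc5, Cenpq, Cks2, Kif2c, Mad2l1, Ncaph and Nusap1, had -0.27 and -0.17 and 0.27 and 0.29. No window was given for Ccna2, Smc4 and Tpx2, nor for Aurkb, Kif20a and Cdc25c.

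Other mitosis and G2/M genes came from a list of 87. Of its 35 genes at 500 or more, 21 (60%) were lower in hypoxia in wild-type cells, against 56.7% of all genes. In tri-CH1 cells 22 (62.9%) were, against 53.5%, and the medians were -0.07 and -0.10. By genotype, 28 (80%) were higher in tri-CH1 in normoxia, against 53.3%, and 24 (68.6%) in hypoxia, against 55.5%. Those medians were 0.23 and 0.18. Genes called by 2-fold were Nuf2, a subunit of the microtubule-binding kinetochore complex, higher in tri-CH1 in normoxia (336 against 744), and the Cdk1-activating phosphatase Cdc25b (315 against 640.1). These were 2 of 33 bright enough, where 3.16% of all genes were called higher and 6.65% in either direction. Zwint, a kinetochore protein, was called lower in tri-CH1 in hypoxia (2616 in wild type against 1217). It was the 1 called of 26, where 3.31% of all genes were called lower and 7.06% in either direction.

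Among regulators of late cell cycle transcription, 6 of 25 listed genes reached 500: Foxm1, Cdkn1a, Rbbp4, Tfdp1, Nfya and Nfyc. With hypoxia 0 of 5 bright enough were called in wild type and 0 of 6 in tri-CH1, against 4.24% and 4.18% of all genes. By genotype 0 of 6 were called in normoxia and in hypoxia, against 6.65% and 7.06%. The medians of the 6 were 0.08 and -0.08 for hypoxia and 0.04 and 0.14 for genotype. Foxm1 and Cdkn1a were picked for mention after their values were seen. Foxm1, an activator of G2/M promoters, had 401, 487, 639 and 652, higher in tri-CH1 by 0.67 and 0.42. Cdkn1a (p21), an inhibitor of cyclin-dependent kinases, had 4504, 7122, 2621 and 4884, higher in hypoxia by 0.66 and 0.90 and lower in tri-CH1 by -0.78 and -0.54. Its order of arrays was the reverse of that of Cdc20, a pair also picked after the values were seen. Mybl2, the MuvB partner, did not reach 500. Whether either regulator bears on the list was not tested.

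DNA replication genes were mostly lower in hypoxia in both genotypes. Of 25, 21 (84%) were lower in wild type and 22 (88%) in tri-CH1, against 56.7% and 53.5% of all genes. Their medians were -0.27 and -0.44. Fen1 was called lower in wild type, 1 of 18 bright enough, where 1.19% of all genes were. Fen1 and the licensing factor Cdt1 were called lower in tri-CH1, 2 of 23, where 0.987% were. The 30 mitosis and G2/M genes had medians of -0.27 and -0.13. With a mean signal of 500 or more, the medians were -0.42 and -0.44 for 17 replication genes, beside -0.28 and -0.21 for 25 mitosis and G2/M genes. By genotype the replication genes had medians of 0.26 and 0.13, and Mcm6, a helicase subunit, was called higher in tri-CH1 in hypoxia, at 1.02. Mcm6 was the 1 called of 18, where 3.76% of all genes were called higher. The list of G1 cyclins and CDK inhibitors held 12 counted genes, including the kinases Cdk2 and Cdk4 and the G-type cyclins Ccng1 and Ccng2. Cdkn1a is in the list of regulators too. Over all 17 genes with a probe set, dim ones included, the medians were 0 and 0 for hypoxia and 0 and -0.11 for genotype. The 12 counted genes had medians of 0.14 and 0.10 for hypoxia and -0.06 and -0.46 for genotype. For these 12, though not over all 17, the medians lay on the other side of 0 from the 30 genes in all 4 comparisons. Their calls were Ccng2 and Cdkn1b higher in hypoxia in wild type, Ccng2 in tri-CH1, Ccnd1 higher in tri-CH1 at both oxygen levels, Cdkn2c higher there in hypoxia, and Ccnd2 and Ccng1 lower there in hypoxia. That was 2 of 12 bright enough with hypoxia in wild type and 1 of 11 in tri-CH1, against 4.24% and 4.18% of all genes. By genotype 1 of 9 was called in normoxia and 4 of 11 in hypoxia, against 6.65% and 7.06%. No test of the difference between lists was run.

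**Figure D4:**
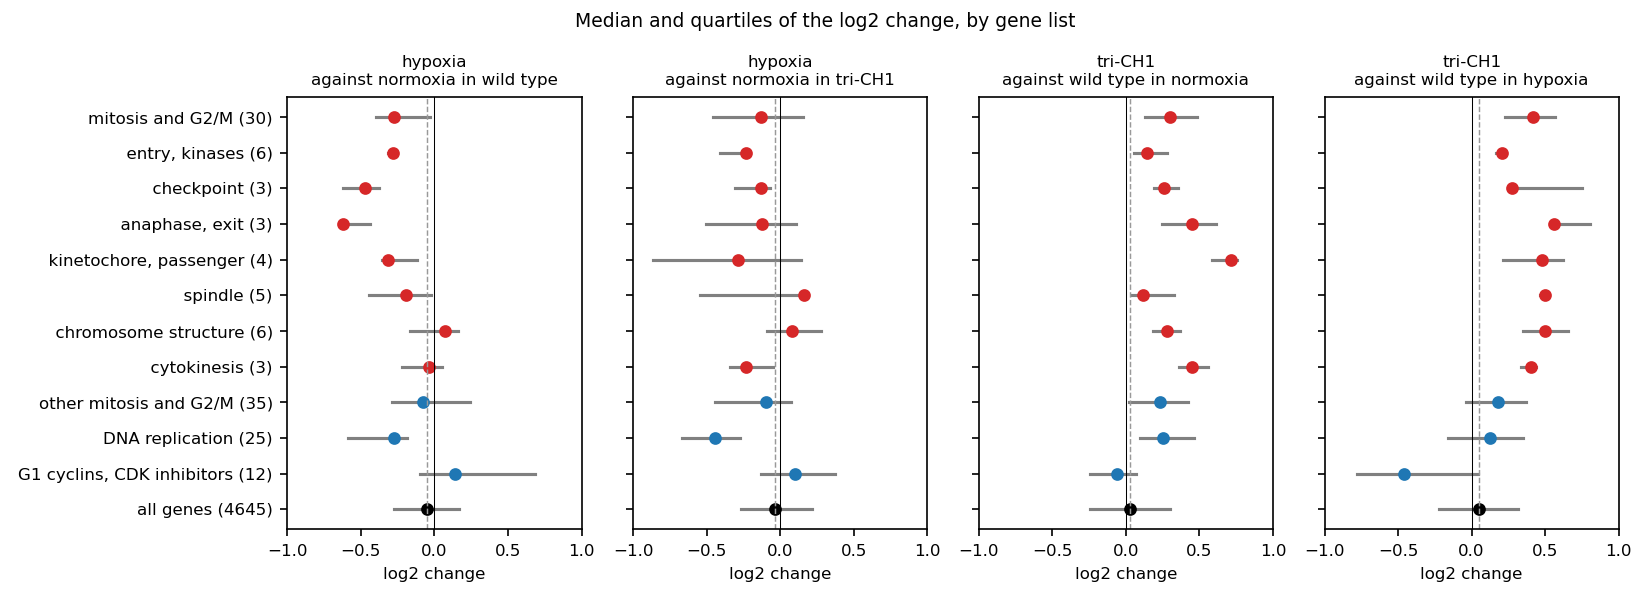
Median (dot) and quartiles (bar) of the log2 change in each of the 4 comparisons for the 30 genes, their 7 roles (red), 3 other lists (blue) and all genes (black), with the number of genes in brackets; the dashed line is the median of all genes. In hypoxia against normoxia the red dots for entry, checkpoint, exit, kinetochore and cytokinesis lie left of 0 in both genotypes. That for spindle does so in wild type only, and that for chromosome structure lies right of 0 in both. In tri-CH1 against wild type the red dots of all 7 roles lie right of 0, on the deposited scale.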

How the data were processed

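Signal intensity was deposited by the authors as 1 linear value per probe set. Per the labels, it comes from the Affymetrix statistical algorithm with background correction and 1 scale factor per array (3.46, 6.73, 10.3 and 8.70 for wild type in normoxia and hypoxia and tri-CH1 in normoxia and hypoxia) to a target of 500; software and version are not given in the sources used here.

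Of 22690 probe sets, 20380 had 1 gene symbol in the platform annotation, 691 several, 1555 none and 64 were controls. Each gene took its brightest probe set by mean signal. A floor of 200 preceded log2. The members and lists were chosen with earlier results of these data known. Genes were named by rule: every member called at 2-fold and the 2 brightest of each role with all signals, the rest with changes or ranges, and called genes of other lists. With 1 array per group no test was run, so counts stand beside those of all genes. The calculation was tested on simulated data. Python 3.11.15, numpy 2.4.6, pandas 2.3.3, matplotlib 3.10.9, R 4.3.3 and limma 3.58.1 were used. Probe sets of p300 were not analysed here.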

Additional observations from a re-analysis of the deposited data

Results flagged for a closer look

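Cdca3 moved in opposite directions with hypoxia in the genotypes, each by more than the spread between probe sets of its comparison. The wild-type change, -0.254, was barely past its spread of 0.248. In tri-CH1 the change kept its sign in 7 of 9 settings of the processing. The Cdca3 signal was lower in wild type, from 521 to 437, and higher in tri-CH1, from 713 to 899, a difference of 0.59 on the log2 scale. This difference was not tested, since each genotype has 1 array per oxygen level. No other of the 30 genes met this condition, and no group had the 4 samples needed to look for a sample far from the rest.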

How the results depend on the processing

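All 12 summaries of the list (the median, the number lower and the number past 2-fold, in each of 4 comparisons) were recomputed under every alternative, and no median changed sign. With a floor of 400, past 2-fold were 0 genes with hypoxia in tri-CH1 and 1 by genotype in hypoxia. With no minimum signal (42 genes) or one of 250 (40 genes), 5 genes were lower by genotype in normoxia and 1, Tacc3, was past 2-fold. With a minimum of 1000, 11 genes remained: 9 and 8 were lower with hypoxia in wild type and tri-CH1, 0 by genotype at either oxygen level, 0 were past 2-fold in tri-CH1 with hypoxia or by genotype in hypoxia, and the latter median was 0.28. Under quantile normalization, cyclic loess, scaling to the same median, the mean over all probe sets and plain _at probe sets, 1 gene was past 2-fold by genotype in hypoxia. Scaling to the same median gave a median of 0.080 and 12 genes lower by genotype in normoxia, beside a median of -0.20 and 68.8% lower for all genes. The mean over probe sets left 19 genes, 15 lower with hypoxia in wild type, 2 past 2-fold in tri-CH1 (Cenpq and Cdc20) and a genotype median in hypoxia of 0.28; plain _at left 20, with 15 and 0.27. At 1.5-fold, 2, 5, 5 and 7 genes were past the limit with hypoxia in wild type and tri-CH1 and by genotype in normoxia and hypoxia. A mean signal of 500, chosen after seeing the data, left 0 past 2-fold with hypoxia in tri-CH1 and 1 by genotype in hypoxia; the mean over probe sets at 500, also added then, moved none of the 12. Counts over fewer genes fall for that reason. Of 1060 values of single genes, 43 moved by more than the spread between probe sets and none past 2-fold changed sign. Smaller values did change sign between settings. With hypoxia, Ncaph in wild type ranged from -0.41 to 0.36 and Kif2c in tri-CH1 from -0.37 to 0.23. No paired analysis was possible because each comparison sets 1 array against 1 and so holds 1 replicate number; a fit of genotype and oxygen together over the 4 arrays was not run.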
